A study of Mus musculus with 5 samples.

Results

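The Toll-like receptor genes Tlr1, Tlr2, Tlr3, Tlr4, Tlr6, Tlr7, Tlr8, Tlr9, Tlr11 and Tlr13 were followed in dendritic cells that lack or carry the ETS family transcription factor gene Etv3. They were taken by symbol from a table of normalized gene counts and make up 10 of its 27678 genes. The groups were 3 Etv3-/- libraries and 2 Etv3+/+ libraries, each from dendritic cells sorted out of bone marrow cultures of mice of that genotype. Marrow of both genotypes grew for 6 days in 20 ng/ml GM-CSF plus 5 ng/ml IL-4, and the labels name no receptor agonist. The sort kept live CD11c+ cells with intermediate CD11b, high MHC-II and no CD115, and its stated purity was above 95%. The sources used here do not give strain, age or which part of the Etv3 locus was disrupted.

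Toll-like receptors are transmembrane sensors of microbial products on dendritic cells and other innate cells. TLR2 works at the cell surface in pairs, with TLR1 for triacylated lipopeptides and with TLR6 for diacylated ones, while TLR4 with its co-receptor MD-2 senses lipopolysaccharide. TLR3, TLR7, TLR8, TLR9, TLR11 and TLR13 signal from endosomes, where they meet nucleic acids or, for TLR11, the protein profilin, and the chaperone UNC93B1 brings them there. All of them except TLR3 signal through the adaptor MyD88, TLR3 signals through TRIF and TLR4 uses both, and the pathways end in NF-kB and interferon regulatory factors.

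ETS proteins bind DNA around a GGAA core. The promoters of Tlr1 and of its neighbour Tlr6 are shown because Tlr1 was the member called between genotypes, and a gap of 18.5 kb on chromosome 5 separates these paralogs. The windows run from 250 bases before to 50 bases after a start listed by RefSeq on GRCm38.p6, on the gene's strand, with GGAA on either strand (GGAA or TTCC) in capitals.
Tlr1, chr5:64932650-64932949, minus strand: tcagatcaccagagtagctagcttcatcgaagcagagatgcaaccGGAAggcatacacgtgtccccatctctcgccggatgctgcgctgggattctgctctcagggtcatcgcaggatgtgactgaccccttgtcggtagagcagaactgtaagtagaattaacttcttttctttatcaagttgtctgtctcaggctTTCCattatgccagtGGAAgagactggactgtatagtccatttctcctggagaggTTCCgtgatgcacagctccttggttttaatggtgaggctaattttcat
Tlr1, chr5:64933509-64933808, minus strand: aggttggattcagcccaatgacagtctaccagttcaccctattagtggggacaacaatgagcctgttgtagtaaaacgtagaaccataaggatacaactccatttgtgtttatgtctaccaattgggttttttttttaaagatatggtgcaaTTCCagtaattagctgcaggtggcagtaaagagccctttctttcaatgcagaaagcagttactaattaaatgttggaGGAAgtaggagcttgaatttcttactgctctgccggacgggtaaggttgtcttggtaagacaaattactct
Tlr6, chr5:64959999-64960298, minus strand: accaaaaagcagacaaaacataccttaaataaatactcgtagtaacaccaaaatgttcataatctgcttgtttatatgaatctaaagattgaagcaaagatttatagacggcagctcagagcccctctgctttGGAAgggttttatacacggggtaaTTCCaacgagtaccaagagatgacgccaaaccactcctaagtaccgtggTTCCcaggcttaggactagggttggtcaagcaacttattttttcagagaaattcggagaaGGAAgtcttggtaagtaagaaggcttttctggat
RefSeq lists a second Tlr6 start, whose window (chr5:64959117-64959416) holds 3 GGAA matches and is not printed. The printed windows hold 4, 2 and 4 GGAA matches in their order here, where the median over 32851 promoters of this length is 3 and 96.0% hold at least 1. The longer motif CGGAAG, which contains GGAA, matches once in the first Tlr1 window and occurs in 16.9% of all promoters. GAGGAA, which also contains GGAA, matches once in the second Tlr1 window and occurs in 28.3%. A match is a description of the letters and not a binding site. Of the 10 members 8 had a RefSeq promoter entry.

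Recovered depth was 42983550 to 59694413 reads in Etv3-/- libraries and 56445754 to 68253936 in Etv3+/+ libraries. Etv3 itself averaged 20655 ± 2093 normalized counts in Etv3-/- (SD, n = 3) and 24249 ± 1695 in Etv3+/+ (SD, n = 2), and the difference did not pass (log2 fold change -0.23, limma adjusted p = 0.567). Since the disrupted part is not known here, this total does not check the genotype labels, and every direction below rests on them. Dendritic cell genes were present in every library, with Itgax (CD11c) at a mean of 13548 normalized counts in Etv3-/- and 10179 in Etv3+/+, and Zbtb46 at 11463 in Etv3-/- and 9945 in Etv3+/+. Libraries also differed in how their deviation from each gene's mean follows GC content, with Spearman correlations across genes of -0.098 to 0.41 in Etv3-/- libraries and -0.42 to 0.038 in Etv3+/+ libraries. Normalized counts are read counts that the authors divided by a factor for each library, and a read was worth 0.877 to 1.24 of them in Etv3-/- libraries and 0.856 to 0.932 in Etv3+/+ libraries. Fold changes below are on the log2 scale of normalized count + 1, Etv3-/- minus Etv3+/+, with p-values from limma adjusted over all 13813 genes that reached 10 normalized counts in at least 2 libraries.

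Of the 10 members 8 reached that level, and Tlr3 and Tlr11 did not. Tlr1 rose and was the single member past the adjusted threshold of 0.05, 1 of 8 upward, where 0.876% of all tested genes passed in that direction. No member passed downward, where 0.319% of all tested genes did, and 1 of 8 members had an adjusted p under 0.05 in either direction, against 1.19% of all genes. Tlr1, Tlr6 and Tlr8 had every Etv3-/- value above every Etv3+/+ value, a pattern that 16.7% of all tested genes had. The same 3 of 8 members were higher at an unadjusted limma p under 0.05, against 8.02% of all tested genes. No member had the opposite pattern, which 19.3% of all tested genes had, and edgeR and DESeq2 also called 0 members lower. The median log2 fold change was 1.37 over the 8 tested members and -0.06 over all tested genes. Tlr1 reached the filter through its Etv3-/- libraries alone. Tlr7 and Tlr9 also needed Etv3-/- libraries to reach it, with Etv3+/+ values of 12.1 and 1.71 for Tlr7 and 16.8 and 6.85 for Tlr9. These counts and the median therefore describe the members and test nothing about the family.

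**Figure D1:**
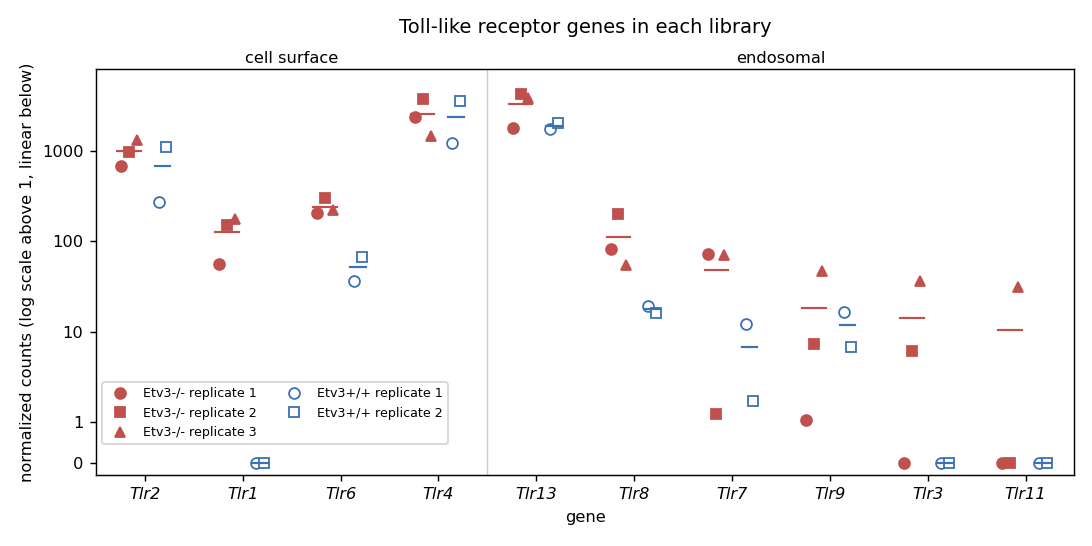
Normalized counts of the 10 receptor genes (y axis, log scale above 1 and linear below) in each library, with filled red symbols for Etv3-/-, open blue symbols for Etv3+/+ and lines at the group means. Tlr1 is at 0 in both Etv3+/+ libraries and between 57.0 and 176 in Etv3-/-, while Tlr2, Tlr4 and Tlr13 overlap between genotypes.

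Tlr1, the partner of TLR2 for triacylated lipopeptides, lies on the minus strand of chromosome 5 (64924679 to 64933563, GRCm38). It had 57.0, 152 and 176 normalized counts in Etv3-/- replicates 1, 2 and 3, and 0 in both Etv3+/+ libraries. These values are 53, 123 and 201 reads in Etv3-/- against 0 and 0 reads in Etv3+/+, and the deepest library of the study was Etv3+/+ replicate 2. All 3 Etv3-/- libraries were thus above both Etv3+/+ libraries. Set against a floor of 3 reads over the Etv3+/+ group, or 1.34 normalized counts, the Etv3-/- mean of Tlr1 was 96.0-fold higher. This ratio allows for counting error of the Etv3+/+ zeros only. It covers neither the spread of the Etv3-/- libraries nor the dependence between reads of 1 library. The fitted log2 fold change was 6.86 ± 1.15 (SE, limma adjusted p = 0.0396). With Etv3+/+ at 0 this fitted value depends on the pseudocount of 1, and it was 7.86 with 0.5 and 4.60 with 5. The exact permutation p, two-sided, was 0.1, which is the smallest that the 10 splits of 3 against 2 libraries allow. The call was lost on leaving out any 1 of the 5 libraries (limma adjusted p = 0.0809 to 0.174). It was also lost in edgeR on recovered reads (adjusted p = 0.0586).

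Tlr6, the partner of TLR2 for diacylated lipopeptides (chromosome 5, 64952031 to 64960097), had 205, 301 and 221 normalized counts in Etv3-/-, against 36.3 and 67.6 in Etv3+/+. Every Etv3-/- library was above both Etv3+/+ libraries. The mean was 242 ± 51.2 in Etv3-/- (SD, n = 3) and 52.0 ± 22.1 in Etv3+/+ (SD, n = 2), a 4.66-fold ratio. The log2 fold change of 2.25 (95% interval 0.86 to 3.63) did not pass (limma adjusted p = 0.121). DESeq2 on recovered reads called it (adjusted p = 0.0121).

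Tlr2, the shared subunit of these pairs (chromosome 3, 83836272 to 83841767), had 689, 987 and 1322 normalized counts in Etv3-/- and 273 and 1106 in Etv3+/+. The genotypes overlapped, since Etv3+/+ replicate 2 lay above Etv3-/- replicates 1 and 2. Tlr2 had a log2 fold change of 0.81 (95% interval -0.56 to 2.18, limma adjusted p = 0.502). It was -0.20 without Etv3+/+ replicate 1 (limma adjusted p = 0.840).

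Set per kb of exon, the partners made up different amounts beside Tlr2. Tlr1 was at 7.45%, 13.9% and 12.0% of the Tlr2 level in Etv3-/- libraries, and at 0% in both Etv3+/+ libraries. Tlr6 was at 24.1%, 24.7% and 13.5% of the Tlr2 level in Etv3-/-, against 10.8% and 4.94% in Etv3+/+. In each Etv3-/- library Tlr1 was lower than Tlr6, at 30.9%, 56.4% and 88.8% of it. The transcripts of Tlr1 and Tlr6 shared no stretch of 50 bp or more at 95% identity. In Tlr6, 63 bp lay in alignments above these limits with transcripts of 142 other genes.

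Tlr4, the lipopolysaccharide receptor (chromosome 4, 66827584 to 66930284), was among the 3 most abundant members. It had 2381, 3794 and 1468 normalized counts in Etv3-/-, against 1224 and 3531 in Etv3+/+. Both genotypes spanned much the same range, with a log2 fold change of 0.19 (95% interval -1.02 to 1.39, limma adjusted p = 0.883). The exons of Tlr4 are 39.4% GC, and with a correction for GC content and length the log2 fold change was 0.81 (limma adjusted p = 0.193). It was -0.15 without Etv3-/- replicate 2 (limma adjusted p = 0.922) and -0.58 without Etv3+/+ replicate 1 (limma adjusted p = 0.577).

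**Figure D2:**
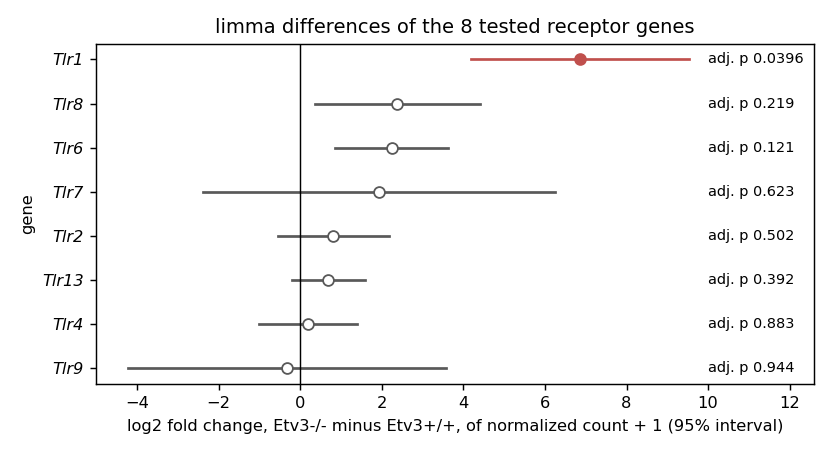
Fitted log2 fold changes (x axis, Etv3-/- minus Etv3+/+, normalized count + 1) of the 8 tested receptor genes with 95% intervals and limma adjusted p-values. The filled red point is Tlr1 at 6.86, the one member that passed, and the intervals of Tlr6 and Tlr8 also lie above 0 without an adjusted p under 0.05.

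Among the endosomal members Tlr13 and Tlr8 had the highest levels. Tlr13, a sensor of bacterial ribosomal RNA (chromosome X, 106143204 to 106160493), had 1774, 4294 and 3822 normalized counts in Etv3-/-, against 1772 and 2040 in Etv3+/+. Etv3-/- replicate 1 lay between the Etv3+/+ libraries and the other two Etv3-/- libraries lay above them. Tlr13 had a log2 fold change of 0.69 (95% interval -0.20 to 1.59, limma adjusted p = 0.392), which was 1.09 without Etv3-/- replicate 1 and 0.45 without Etv3-/- replicate 2. Tlr8, a sensor of single-stranded RNA in humans (chromosome X, 167242696 to 167264329), had 81.7, 203 and 55.2 normalized counts in Etv3-/-, against 19.6 and 16.3 in Etv3+/+. All 3 Etv3-/- values were above both Etv3+/+ values, with a mean of 113 ± 78.8 (SD, n = 3) in Etv3-/- and 17.9 ± 2.34 (SD, n = 2) in Etv3+/+. The ratio of 6.33 and the log2 fold change of 2.38 (95% interval 0.36 to 4.41) came with a limma adjusted p of 0.219.

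Tlr7, which senses single-stranded RNA, lies on chromosome X (167304929 to 167330558), 40.6 kb from Tlr8. It had 72.1, 1.24 and 71.0 normalized counts in Etv3-/-, against 12.1 and 1.71 in Etv3+/+. Etv3-/- replicate 2, which held the most Tlr8, rested on 1 Tlr7 read, so the genotypes overlapped (log2 fold change 1.93, 95% interval -2.39 to 6.25, limma adjusted p = 0.623). That value was 3.60 without Etv3-/- replicate 2 and 3.07 without Etv3+/+ replicate 1, and it was 1.09, 1.10 and 0.79 without Etv3-/- replicate 1, Etv3-/- replicate 3 and Etv3+/+ replicate 2 in that order. Tlr9, the receptor for unmethylated CpG DNA (chromosome 9, 106222598 to 106226883), had 1.08, 7.43 and 47.4 normalized counts in Etv3-/-, against 16.8 and 6.85 in Etv3+/+. Etv3-/- held both the lowest and the highest value, and the log2 fold change of -0.32 (limma adjusted p = 0.944) turned to 0.77 without Etv3-/- replicate 1.

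Tlr3, the receptor for long RNA duplexes (chromosome 8, 45395665 to 45411080), had 0, 6.19 and 36.8 normalized counts in Etv3-/- and 0 in both Etv3+/+ libraries. Tlr11, the profilin receptor (chromosome 14, 50357914 to 50363663), had 31.6 normalized counts in Etv3-/- replicate 3 and 0 in the other two Etv3-/- and both Etv3+/+ libraries. For both genes Etv3-/- replicate 3 held most or all of the reads, 42 of 47 for Tlr3 and 36 of 36 for Tlr11. That library was also the highest for Tlr9, Tlr1 and Tlr2 and was the deepest of its genotype. Libraries were made by a low-input PCR method, so reads are not independent molecules. Where reads were 0 a gene was not detectable at this depth. Tlr3 overlaps the antisense gene Gm45542, and 117 bp (2.65%) of its 4407 bp transcript is shared with it. Reads within that stretch cannot be told apart unless counting used strand. No other member overlaps an annotated gene.

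The remaining mouse receptor genes in the table gave no call. Tlr5, the flagellin receptor, had 119, 364 and 265 normalized counts in Etv3-/-, against 10.3 and 156 in Etv3+/+ (log2 fold change 2.43, limma adjusted p = 0.305). Etv3+/+ replicate 2 lay within the Etv3-/- range. Tlr12, which senses profilin together with TLR11, had 358, 770 and 891 in Etv3-/-, against 550 and 628 in Etv3+/+ (log2 fold change 0.09, limma adjusted p = 0.938).

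Levels of the members were set side by side as normalized counts per kb of exon. Tlr5 and Tlr12 are not members and are not in the order below. Tlr12 was at 212 ± 87.9 in Etv3-/- (SD, n = 3) and 185 ± 17.4 in Etv3+/+ (SD, n = 2), between the means of Tlr2 and Tlr6. In Etv3-/- the order was Tlr13 at 766 ± 311, Tlr4 at 459 ± 211, Tlr2 at 332 ± 105, Tlr6 at 65.1 ± 13.7, Tlr1 at 38.4 ± 18.9 and Tlr8 at 31.6 ± 22.0 (SD, n = 3), then Tlr7, Tlr9, Tlr11 and Tlr3 at 2.75 to 11.8. In Etv3+/+ it was Tlr13 at 443 ± 44.1, Tlr4 at 428 ± 294, Tlr2 at 229 ± 195, Tlr6 at 13.9 ± 5.93 and Tlr8 at 5.00 ± 0.653 (SD, n = 2), then Tlr9, Tlr7 and the 3 genes at 0. In both genotypes the library ranges of Tlr13, Tlr4 and Tlr2 overlapped from each to the next, and a gap separated Tlr2 from Tlr6. Tlr6 stood apart from the next gene by mean as well, Tlr1 in Etv3-/- and Tlr8 in Etv3+/+. It did not stand apart from Tlr8 in Etv3-/-, where Tlr8 reached 56.6 and the lowest Tlr6 value was 55.1. In Etv3-/- the ranges of all neighbours from Tlr1 down overlapped.

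The 3 abundant receptors set most of the total. Summed over all members, the level was 1182, 2195 and 1766 normalized counts per kb in Etv3-/-, against 745 and 1501 in Etv3+/+, and the genotypes overlapped. The cell surface members (Tlr1, Tlr2, Tlr4 and Tlr6) took 61.7%, 51.8% and 46.1% of this sum in Etv3-/- libraries, against 43.0% and 68.0% in Etv3+/+ libraries. Their share varied more between the Etv3+/+ libraries than between genotypes. In bulk RNA, more cells that express a receptor and more RNA of it per cell cannot be told apart.

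**Figure D3:**
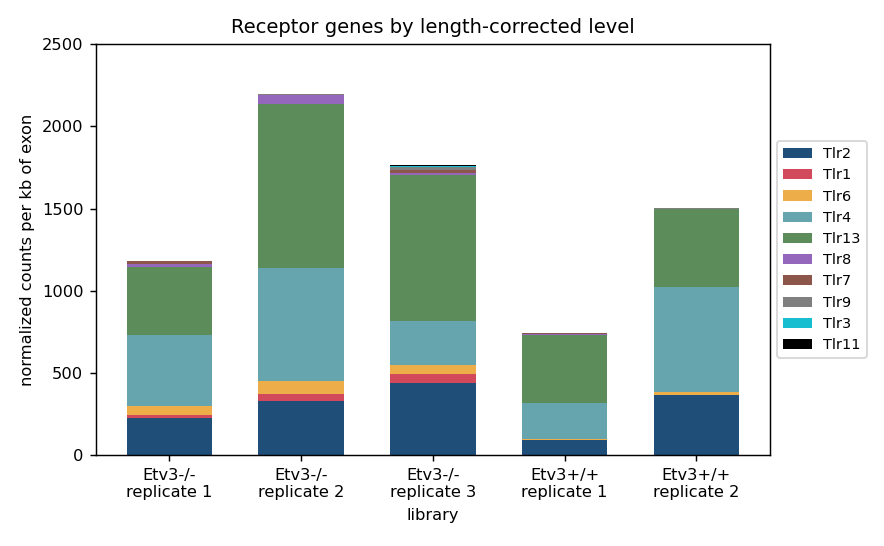
Normalized counts per kb of exon (y axis) of the 10 receptor genes, stacked for each library, Etv3-/- on the left and Etv3+/+ on the right. Tlr13, Tlr4 and Tlr2 fill most of every bar, and the red Tlr1 segment is present in the 3 Etv3-/- bars alone.

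Genes that act with the receptors were read from a list of 87 in 5 roles, of which 82 were tested, 3 rose and 1 fell in limma, where 0.876% of all tested genes rose and 0.319% fell. DESeq2 called 8 higher and 5 lower, but it also called far more of all 13813 tested genes, 636 higher and 533 lower. The DESeq2 counts by role below are to be read beside that. edgeR called the same 4 genes as limma, with 114 higher and 44 lower over all tested genes. In limma, 20 of the 82 had an unadjusted p under 0.05, against 18% of all tested genes. Their median log2 fold change was -0.06, the same as over all tested genes. Chaperones and co-receptors held 2 of the 3 rises in limma, 2 of 15 tested with 0 falls, 8 at an unadjusted p under 0.05 and a median of 0.35. edgeR called the same pair, and DESeq2 called 4 higher (with Cd14 and Cnpy3 added) and 1 lower, Lgmn. Unc93b1, which carries endosomal receptors out of the endoplasmic reticulum, had 22997, 21838 and 24971 normalized counts in Etv3-/-, against 9483 and 8466 in Etv3+/+. The values were close within each genotype and did not overlap between them (2.59-fold by means, log2 fold change 1.37 ± 0.19 SE, limma adjusted p = 0.0249). Ly86 encodes MD-1, the partner of the receptor homologue RP105. It had 19261, 18480 and 20858 normalized counts in Etv3-/-, against 5802 and 8060 in Etv3+/+ (2.82-fold by means, log2 fold change 1.51 ± 0.21 SE, limma adjusted p = 0.0260). The gene of RP105 itself, Cd180, was near absent, at 11.8, 0 and 1.75 normalized counts in Etv3-/- and 4.66 and 3.42 in Etv3+/+.

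The co-receptors of TLR4, named here after their values were seen, had differences of opposite sign, neither past the limma test. Cd14, which hands lipopolysaccharide to the receptor, averaged 3073 ± 767 normalized counts in Etv3-/- (SD, n = 3) and 1144 ± 574 in Etv3+/+ (SD, n = 2), with a log2 fold change of 1.49 (limma adjusted p = 0.112, DESeq2 adjusted p = 0.00687). Ly96, which encodes MD-2, averaged 2479 ± 734 in Etv3-/- and 5102 ± 2025 in Etv3+/+, with a log2 fold change of -1.03 (limma adjusted p = 0.191). Neither gene's values overlapped between genotypes, as for 36% of all tested genes.

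Of 6 adaptors 0 passed in limma, in edgeR or in DESeq2, and 0 had an unadjusted limma p under 0.05 (median log2 fold change 0.33), and Myd88, the common adaptor, averaged 2907 ± 455 in Etv3-/- and 2290 ± 758 in Etv3+/+ (limma adjusted p = 0.522). Pik3ap1, the adaptor BCAP, averaged 1869 ± 577 in Etv3-/- and 1491 ± 111 in Etv3+/+ (limma adjusted p = 0.680). Of 24 kinases, ligases and transcription factors 1 rose and 0 fell in limma, with 7 at an unadjusted p under 0.05 and a median of -0.18. edgeR called that gene alone, and DESeq2 called 2 higher (Ikbke and Tab1) and 2 lower (Peli1 and Traf6). The gene that rose in limma was Ikbke, the kinase IKK-epsilon of the interferon branch, with 4465, 4337 and 4772 normalized counts in Etv3-/-, against 2029 and 1589 in Etv3+/+ (log2 fold change 1.33 ± 0.22 SE, limma adjusted p = 0.0365). It overlaps the antisense genes Gm28914 and Gm28913. Of 15 inhibitors 0 passed in limma, with 2 at an unadjusted p under 0.05 and a median of -0.02, while edgeR called 0 and DESeq2 called 1, Tnfaip3, higher. Nfkbia, the inhibitor of NF-kB, averaged 106229 ± 13554 in Etv3-/- and 76923 ± 3180 in Etv3+/+ (limma adjusted p = 0.364), and Dusp1, a phosphatase of MAP kinases, 18896 ± 2038 in Etv3-/- and 27056 ± 4571 in Etv3+/+ (limma adjusted p = 0.264).

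Of 26 genes that receptor stimulation induces 22 were tested, 0 rose and 1 fell (median -0.02), with 3 at an unadjusted limma p under 0.05. edgeR called the same gene alone, and DESeq2 called 1 higher and 2 lower. Il12b, the p40 chain of IL-12, had 1157, 2322 and 2256 normalized counts in Etv3-/-, against 6471 and 7869 in Etv3+/+ (log2 fold change -1.97 ± 0.34 SE, limma adjusted p = 0.0419). Ifnb1 had no read in any library. Each of the 4 calls on the list was lost in 6 to 8 of 19 alternatives, among them limma without trend and limma without each Etv3-/- library.

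**Figure D4:**
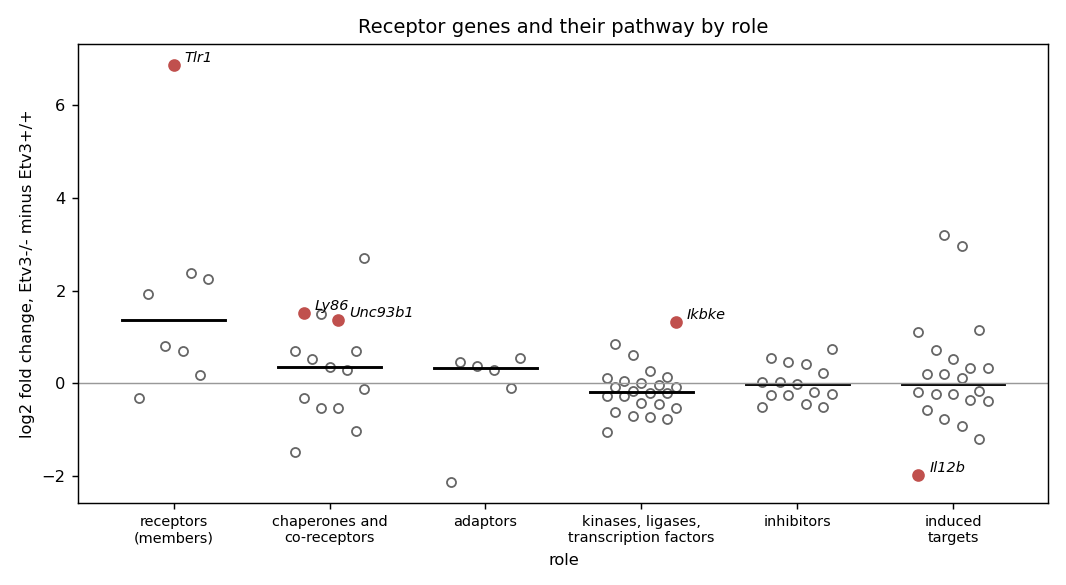
Log2 fold changes (y axis, Etv3-/- minus Etv3+/+) of the 8 tested receptor genes and of 82 tested pathway genes by role (x axis), with lines at the medians and filled red points for genes with a limma adjusted p under 0.05. Beside Tlr1 the filled points are Unc93b1, Ly86 and Ikbke above 0 and Il12b below 0, while the medians of the other roles lie between -0.18 and 0.35.

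The 10 genes listed for the gated dendritic cells summed to 2129989 to 2897059 normalized counts in Etv3-/- and 921764 to 1308502 in Etv3+/+, with Ciita called higher. Cd74, H2-Ab1, H2-Aa and H2-Eb1 made up most of that sum. Each was higher in Etv3-/- without overlap, as for 16.7% of all tested genes, and none was called. Flt3 averaged 3769 in Etv3-/- and 3714 in Etv3+/+, and Irf4 averaged 5090 in Etv3-/- and 6886 in Etv3+/+. The values of both overlapped between genotypes, as did those of Itgax. Markers of other cells also differed in level between genotypes. Of 10 macrophage and monocyte markers 3 rose (C1qa, C1qb and C1qc), where 0.876% of all tested genes rose. The summed level of the list was 19651 to 25156 normalized counts in Etv3-/- and 8789 to 9709 in Etv3+/+. Ly6c2 of that list had the opposite sign, at a mean of 343 in Etv3-/- and 501 in Etv3+/+. Its values overlapped between genotypes, as did those of Cd68. Fcgr1 of that list was at 0 in both Etv3+/+ libraries and in 1 Etv3-/- library, and Csf1r, which encodes the CD115 that the sort excluded, averaged 2928 in Etv3-/- and 1183 in Etv3+/+ (limma adjusted p = 0.0683). The 8 B cell markers summed to 3677 to 5728 in Etv3-/- and 1742 to 2367 in Etv3+/+, with 0 called. Among them Ms4a1 had the opposite sign, at a mean of 142 in Etv3-/- and 271 in Etv3+/+, with overlap. The 7 plasmacytoid markers summed to 6540 to 7474 in Etv3-/- and 4935 to 5851 in Etv3+/+, with Ccr9 called and Siglech at 0 in every library. Ccr9 was at 99.1 to 199 in Etv3-/- and 0 in both Etv3+/+ libraries, so it reached the filter through Etv3-/- libraries alone. Tcf4 made up most of that sum, at 5766 to 6760 in Etv3-/- and 4442 to 5476 in Etv3+/+. Cox6a2 was lower, at 58.8 to 100.3 in Etv3-/- and 155 to 167 in Etv3+/+, without overlap as for 19.3% of all tested genes. The 7 type 1 dendritic markers summed to 108862 to 121405 in Etv3-/- and 109176 to 138491 in Etv3+/+, overlapping. Naaa was called higher, and Clec9a had 2 reads over all libraries. Irf8 made up most of that sum and had the opposite sign, at a mean of 86533 in Etv3-/- and 109788 in Etv3+/+. It was lower without overlap, as for 19.3% of all tested genes, and was not called. Batf3 averaged 6145 in Etv3-/- and 6956 in Etv3+/+, with overlap. The 8 neutrophil markers summed to 11190 to 63965 in Etv3-/- and 40850 to 49124 in Etv3+/+, and the 8 mature dendritic markers to 1050919 to 1465585 in Etv3-/- and 1024989 to 1166330 in Etv3+/+, both overlapping with 0 called. The mature sum hid differences of opposite sign without overlap, a pattern of 36% of all tested genes in either direction, and none was called. Fscn1 averaged 33844 in Etv3-/- and 85297 in Etv3+/+, and Socs2 averaged 24440 in Etv3-/- and 49370 in Etv3+/+. Ccl22 averaged 574118 in Etv3-/- and 391506 in Etv3+/+, and Cd83 averaged 195098 in Etv3-/- and 143799 in Etv3+/+. The gate, macrophage, B cell and plasmacytoid sums did not overlap between genotypes, as for Tlr1, Tlr6 and Tlr8, and their part in those results and in the 4 pathway calls was not tested.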

How the data were processed

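The authors deposited one table of normalized counts, a signal in which read counts per gene are divided by a factor for each library. The build was mm10, per the submitters' processing notes, which also list DESeq2 1.26.0, STAR 2.7.3a, Trimmomatic 0.36, featureCounts and Subread 1.6.3. The sources used here give no roles, annotation, strand setting or filters. Per the labels' protocols, RNA went into low-input SMART-Seq libraries.

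In every library 100% of values above 0 were within 0.1 of a whole multiple of 1 step, which gave whole reads. Genes at 10 or more normalized counts in at least 2 libraries were tested with limma 3.58.1 (trend, R 4.3.3) on log2(normalized count + 1). Tests were two-sided and Benjamini-Hochberg adjusted, with a threshold of 0.05. The procedure was also run on simulated counts drawn without GC trends between libraries, and that outcome is not given here. Alternatives were pseudocounts of 0.5 and 5, no filter or one of 3 libraries, TMM and quantile scaling, limma without trend or robust, edgeR 4.0.16 and DESeq2 1.42.0 on recovered reads, a block for replicate number, a GC and length correction (loess, span 0.3), each library left out, and both libraries with the strongest GC trend left out (Etv3-/- replicate 3 and Etv3+/+ replicate 2). No label says that replicates are separate mice or cultures, and a p-value then reflects only library-to-library spread, which may be technical. The members, the pathway and marker lists and the tests were chosen with earlier results of these data known. Text names all members, called pathway genes and, for roles with none, the 2 with the highest mean. Positions, exon lengths and GC content came from GENCODE M21 (GRCm38, the assembly of mm10), matched by symbol for 97.4% of all genes and giving GC content for 98.5% of those tested. Shared stretches were sought with blastn 2.17.0, and figures drawn with matplotlib 3.10.9.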

Additional observations from a re-analysis of the deposited data

How the results depend on the processing

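Over 19 alternatives Tlr1 stayed higher (log2 fold change 4.60 to 10.07) and lost its call in 10 (limma adjusted p from 0.0569 without a filter to 0.184 without both libraries of strongest GC trend), so the members called higher were 0 there, 0 without each library, and 2 with DESeq2 (Tlr1 and Tlr6). Without one library, Tlr2 ranged from -0.20 to 1.82, Tlr4 from -0.58 to 0.95, Tlr7 from 0.79 to 3.60 and Tlr13 from 0.45 to 1.09. Tlr9 was tested in 15 alternatives, among them 3 of the 5 single omissions, with -0.91 to 0.77. Without Etv3-/- replicate 3 or Etv3+/+ replicate 1 it did not reach the filter. Tlr9 was 0.14 with quantile scaling, 0.75 with edgeR and 0.70 with DESeq2. Tlr7 was -0.037 without both libraries of strongest GC trend. The cause of these changes was not tested. Tlr6, Tlr8 and Tlr13 were higher in all 19. Over all genes the 121 higher and 44 lower became 44 higher with limma without trend, 70 lower with a pseudocount of 5, 636 and 533 with DESeq2, 225 and 102 with the GC and length correction, 6 and 1 without both libraries of strongest GC trend, and 0 to 73 and 0 to 7 without one library, where fewer samples were fitted. Both counts were 0 without Etv3-/- replicate 1, where 1885 genes had an unadjusted limma p under 0.05. Of the pathway list, 3 genes were higher and 1 lower. With limma without trend both counts were 0, as they were without both libraries of strongest GC trend. With DESeq2 they were 8 and 5. The lower count was 2 with a pseudocount of 5, with 10 or more in at least 3 libraries, and with the GC and length correction, and 0 without a filter. Without one library they were 0 to 1 and 0. The replicate block gave 118 genes lower over all genes, 0 members higher and 2 pathway genes lower, and with the GC and length correction added 0 members and 2 pathway genes. Tlr1 then had limma adjusted p-values of 0.0816 and 0.108. Deviations of libraries with the same number correlated at -0.03 and 0.04, so the numbers were not taken as pairs, and Etv3-/- replicate 3, which has no partner, drops out of the blocked difference. An omission that leaves 1 Etv3+/+ library assumes that it varies like the others. Depth limits Tlr3, Tlr7, Tlr9 and Tlr11, with 36 to 164 reads over all libraries.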

Other observations

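The neighbours of Tlr1 within 200 kb that were tested, described after their values were seen, are Fam114a1, Klf3, Klhl5, Tlr6 and Tmem156. Fam114a1, which lies on the plus strand beyond Tlr6 (chromosome 5, 64970071 to 65041886), averaged 102 ± 42.8 normalized counts in Etv3-/- (SD, n = 3) and 5.13 ± 7.26 in Etv3+/+ (SD, n = 2), with a log2 fold change of 4.85 (limma adjusted p = 0.121). Tmem156 averaged 461 ± 73.1 in Etv3-/- and 277 ± 122 in Etv3+/+ (limma adjusted p = 0.395). Klf3 averaged 1692 ± 580 in Etv3-/- and 1634 ± 985 in Etv3+/+ (limma adjusted p = 0.911), and Klhl5 was at 9155 ± 820 in Etv3-/- and 12761 ± 147 in Etv3+/+ (limma adjusted p = 0.243). The values of Fam114a1, Tlr6, Tmem156 and Klhl5 did not overlap between genotypes, where 36% of all tested genes had groups that did not overlap.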
